A study of Macaca mulatta and Mus musculus and Rattus norvegicus with 12 samples.

Results

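Bone of the calvaria (the roof of the skull) was compared with the tibia, the long bone of the shin, in the 6 rhesus macaque (Macaca mulatta) libraries of a series of 12. All rows of the macaque gene table were used, LOC rows included, where a LOC row is a gene model that carries only a locus number in place of a gene symbol. Of 29199 rows naming a gene, 12371 had at least 10 reads in at least 3 libraries and were tested, and 4977 of these (40.2%) were LOC rows. The calvaria libraries were G1, G3 and T1 and the tibia libraries were G2, G4 and T2. Each library came from 1 female animal that had received no treatment named in the labels, and skull and shin bone were collected as pairs from 3 animals, although the pairs are not named. The labels give the age as 4 to 6 months. The methods of the study give it in years instead, so the age is uncertain here. Macaque bone was cut with a hacksaw, cleared of periosteum (the outer membrane of bone), scraped and dipped in collagenase to enrich osteocytes, the cells embedded in bone matrix. Spinning out the marrow is described for the rodent tibias, and no such step is described for the macaque bones.

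Skull vault and limb bones form from different embryonic tissues, and they keep part of that address through homeobox genes, among them the HOX clusters, which are used in the trunk and limbs. Osteocytes secrete SOST and DKK1, which block Wnt signalling and so restrain bone formation, and they also supply signals that steer osteoclasts, the cells that resorb bone. Bone also encloses marrow, where red cells, platelets, granulocytes and lymphocytes are made, and macaque granulocytes carry theta-defensins, ring-shaped antimicrobial peptides that rodents do not make.

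Between 7951585 and 10342459 reads per library fell on rows naming a gene, and the tested rows held 99.8% of them. The 10 rows with the most reads took 12.3% to 26.3% of a library. On the first principal component of log CPM, which held 51.6% of the variance, the calvaria libraries lay at 32.0 (G1), 39.6 (G3) and 52.1 (T1) and the tibia libraries at -47.0 (G2), -63.9 (G4) and -12.7 (T2). T2 thus stood apart from the other tibia libraries, nearer to the calvaria libraries. It also held the most reads of COL1A2, a chain of type I collagen, at 802861 against 189452 in G2 and 187410 in G4. The letters G and T are taken from the labels and split the libraries of each site in the same way. Nothing in the labels says what they stand for. Some rows of genes well known from bone had few or no reads, such as BGN (biglycan) with 1 to 9 reads per library and CSF1 with 0, so a row at 0 is not read here as absence of the gene's RNA.

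Calls required an adjusted p-value below 0.2 together with more than a 1.1-fold difference. On this rule 3825 of 12371 rows (30.9%) were called, 1950 higher in calvaria (15.8%) and 1875 higher in tibia (15.2%). Counts of called members of a gene list are to be read beside these shares. The values of the sites did not overlap in 33.8% of all tested rows and in 3313 of the called rows. The log2 fold change, written throughout as calvaria over tibia and with ± its standard error, had a median of -0.01 over all tested rows. Among called rows it passed 1 in 961 rows higher in calvaria and in 591 rows higher in tibia. Scaling by library size alone moved the median to -0.21 and the split to 1291 rows for calvaria against 3154 for tibia, and no called row was then called in the other direction. Leaving out G2 or G4 lowered the number of called rows to 2032 and 2519.

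**Figure D1:**
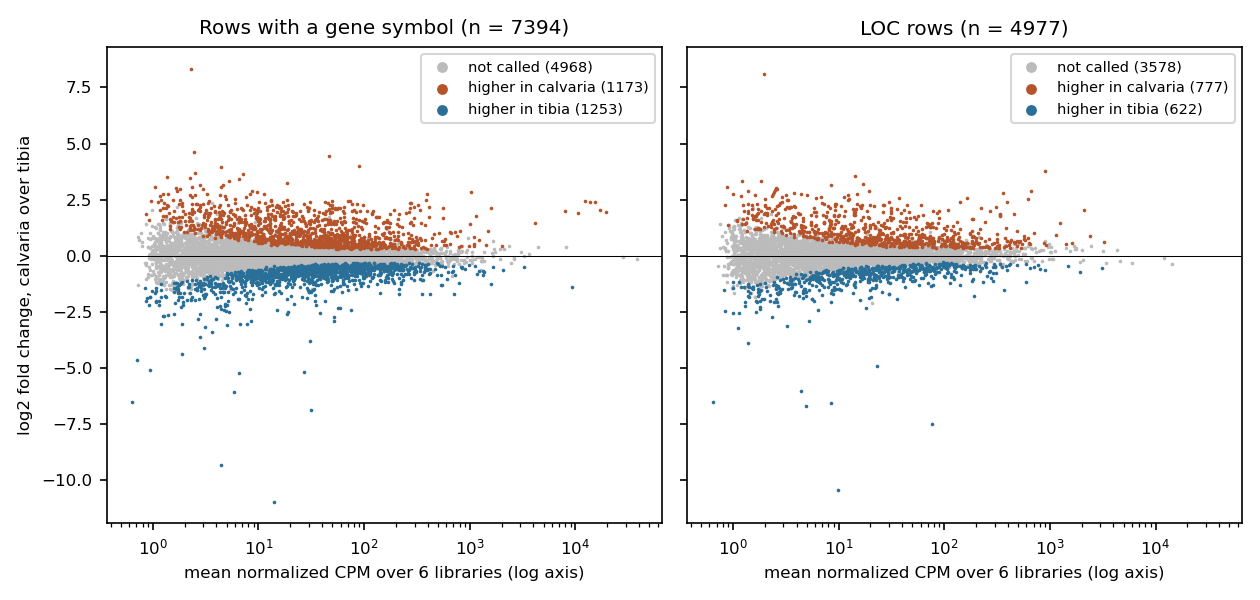
Each point is a tested row, with its mean normalized CPM over the 6 libraries on a log axis and its log2 fold change, calvaria over tibia, for 7394 rows with a gene symbol (left) and 4977 LOC rows (right). Rust points were called higher in calvaria, blue points higher in tibia and grey points were not called. The 2 rows farthest below 0 are HOXC10 and HOXC4, and the 2 rows farthest above 0 are ZIC2 and ZIC4.

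Of 4977 LOC rows 1399 were called (28.1%), and of 7394 rows with a symbol 2426 were called (32.8%). The difference between these shares was not tested. Their median level was also lower, at 12.6 CPM against 20.5 CPM, and their exonic length was shorter, at 1645 against 2711 bases. RefSeq gave 3168 of them a gene symbol, and 976 of these were called, 551 for calvaria and 425 for tibia. A further 1071 LOC rows had no match in RefSeq, and 288 of these were called. Among LOC rows that RefSeq classes as pseudogenes, 53 of 329 were called, and among transcribed pseudogenes 31 of 209, of which 28 were higher in calvaria.

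The LOC row with the smallest p-value among those higher in calvaria was LOC720054, whose product is described only as hypothetical. Its level was 2064, 1854 and 1139 CPM in G1, G3 and T1 against 132, 121 and 116 CPM in G2, G4 and T2, so that every calvaria library stood far above every tibia library. It differed by 3.78 ± 0.24 on the log2 scale (adjusted p = 7.43e-05). ORM1 (LOC703984), an acute-phase plasma protein also stored in neutrophil granules, stood at 566, 771 and 547 CPM in G1, G3 and T1 against 82.4, 96.1 and 87.6 CPM in G2, G4 and T2. ORM1 differed by 2.82 ± 0.19 on the log2 scale (adjusted p = 7.43e-05). GAREM2 (LOC697774), an adaptor in growth factor signalling, was much lower in level, at 27.6, 38 and 36.7 CPM in G1, G3 and T1 against 5.25, 5.15 and 3.59 CPM in G2, G4 and T2, and differed by 2.87 ± 0.25 on the log2 scale (adjusted p = 0.000207). These rows were picked among called rows whose sites did not overlap, so their lack of overlap is a condition of the choice and not a result.

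Among the LOC rows higher in tibia, 3 of the 6 with the smallest p-values were HOX genes, given below. WNT10B (LOC708906), a Wnt ligand that favours bone formation, stood at 6.27, 5.8 and 5.71 CPM in G1, G3 and T1 against 29.2, 38.7 and 22.4 CPM in G2, G4 and T2 and differed by -2.34 ± 0.26 on the log2 scale (adjusted p = 0.00056). LOC100425170 was read at 0.483, 1.39 and 2.55 CPM in G1, G3 and T1 against 58.9, 46.6 and 28.1 CPM in G2, G4 and T2, and it differed by -4.90 ± 0.47 on the log2 scale (adjusted p = 0.000288). LOC100424981, which has no match in RefSeq, had 1, 0 and 1 reads in G1, G3 and T1 against 145, 78 and 48 reads in G2, G4 and T2. The ratio of tibia to calvaria was 117-fold, with a 95% counting interval of 32.2 to 975. In both of these unnamed rows G2 was highest and T2 lowest of the tibia libraries.

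Of 39 HOX cluster genes looked for, 15 were tested, and 14 of these were called higher in tibia, as were 15.2% of all rows. For 12 of the 15 the minimum of 10 reads was reached in every tibia library but not in every calvaria library, so tibia reads alone let them be tested, and their count is a description. The remaining 3, HOXA9, HOXB7 and HOXB8, reached the minimum in all 6 libraries, and each was called higher in tibia. The summed level of the list was 10.33 to 19.8 CPM in calvaria and 391 to 421 CPM in tibia. HOXA9, a homeobox factor of the posterior trunk and limb, stood at 1.21, 1.89 and 1.22 CPM in G1, G3 and T1 against 55.4, 55.5 and 47.3 CPM in G2, G4 and T2, and differed by -5.19 ± 0.26 on the log2 scale (adjusted p = 1.12e-05). HOXA10 (LOC704713), its neighbour in the cluster, stood at 0.362, 0.505 and 1.58 CPM in G1, G3 and T1 against 129, 140.1 and 185 CPM in G2, G4 and T2, and differed by -7.51 ± 0.38 on the log2 scale (adjusted p = 1.12e-05). Each tibia library lay above each calvaria library in both genes, as the rule that named them required. T2 was the highest tibia library for HOXA10 and the lowest for HOXA9.

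HOXC6 (LOC704526) had 3, 1 and 0 reads in G1, G3 and T1 against 141, 186 and 138 reads in G2, G4 and T2, and the ratio of tibia to calvaria was 100.8-fold with a 95% counting interval of 39.1 to 371. In all, 7 called rows had no read in any library of 1 site, and 5 of them were higher in tibia. The reads of the other site alone let such rows be tested, so their count and direction are a description. HOXC10 had 0, 0 and 0 reads in G1, G3 and T1 against 252, 212 and 336 reads in G2, G4 and T2, which puts tibia at least 76.4-fold higher with the calvaria libraries set at 3 reads each. HOXC4 (LOC100430434) had 0, 0 and 0 reads in G1, G3 and T1 against 170, 175 and 217 reads in G2, G4 and T2, at least 54.0-fold higher in tibia. HOXD10 had 0, 0 and 0 reads in G1, G3 and T1 against 56, 55 and 148 reads in G2, G4 and T2 and was at least 24.2-fold higher. Such bounds cover counting error only. NKX3-2 (LOC713627), a homeobox factor of cartilage, and GABRA3, a GABA receptor subunit, were the other rows of this kind in tibia, with 11 to 13 reads per tibia library and bounds of 3.49-fold and 3.47-fold.

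In the other direction stood ZIC2 and ZIC4, zinc finger factors of the dorsal neural tube and the head. ZIC2 had 42, 21 and 50 reads in G1, G3 and T1 against 0, 0 and 0 reads in G2, G4 and T2 and was at least 14.3-fold higher in calvaria. ZIC4 (LOC712982) had 33, 30 and 33 reads in G1, G3 and T1 against 0, 0 and 0 reads in G2, G4 and T2 and was at least 12.2-fold higher. Of the 17 tested cranial patterning factors, 5 were called higher in calvaria, while 7 were higher in tibia. Of the 10 that reached 10 reads in all 6 libraries, 1 was called higher in calvaria and 5 higher in tibia. Those higher in calvaria included ZIC2, ZIC4, the forkhead gene FOXC2 (log2 1.44 ± 0.52, adjusted p = 0.0986) and TWIST1 (log2 0.51 ± 0.24, adjusted p = 0.199), and without G2 or G4 only 3 were called in that direction. DLX5, a homeobox factor of jaw and of osteoblasts, went the other way, at 149, 144 and 121 CPM in G1, G3 and T1 against 288, 345 and 300.5 CPM in G2, G4 and T2 and with a difference of -1.17 ± 0.16 on the log2 scale (adjusted p = 0.00142).

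Of 12 limb patterning factors, 6 were called higher in tibia and 1, MEIS2, higher in calvaria. TBX3, a T-box factor of the limb bud, stood at 16.5, 14.8 and 10.33 CPM in G1, G3 and T1 against 86.6, 82.7 and 102 CPM in G2, G4 and T2 and differed by -2.71 ± 0.21 on the log2 scale (adjusted p = 0.00018). SHOX2, which directs growth of the proximal limb, stood at 18.3, 15.4 and 17.4 CPM in G1, G3 and T1 against 63.2, 74.4 and 66.1 CPM in G2, G4 and T2 and differed by -1.99 ± 0.18 on the log2 scale (adjusted p = 0.000207). TBX15 stood at 25.7, 22 and 24.9 CPM in G1, G3 and T1 against 144, 151 and 86.7 CPM in G2, G4 and T2 and differed by -2.39 ± 0.23 on the log2 scale (adjusted p = 0.000269). In all 3 genes no library of a site reached the range of the other, which the rule that named TBX3 required. Among 16 tested microRNA precursor rows, 3 were called higher in tibia (18.8%, beside 15.2% of all rows) and 1 higher in calvaria. MIR10B, the precursor encoded within the HOXD cluster, stood at 14.2, 8.83 and 13.9 CPM in G1, G3 and T1 against 83.5, 80.5 and 109.9 CPM in G2, G4 and T2 and differed by -2.89 ± 0.23 on the log2 scale (adjusted p = 0.00018). MIR223, known from myeloid cells, was the 1 higher in calvaria (log2 2.37 ± 0.52, adjusted p = 0.0156). These libraries hold poly(A)+ RNA, so such rows count reads of longer transcripts over the precursor and not the mature microRNA.

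**Figure D2:**
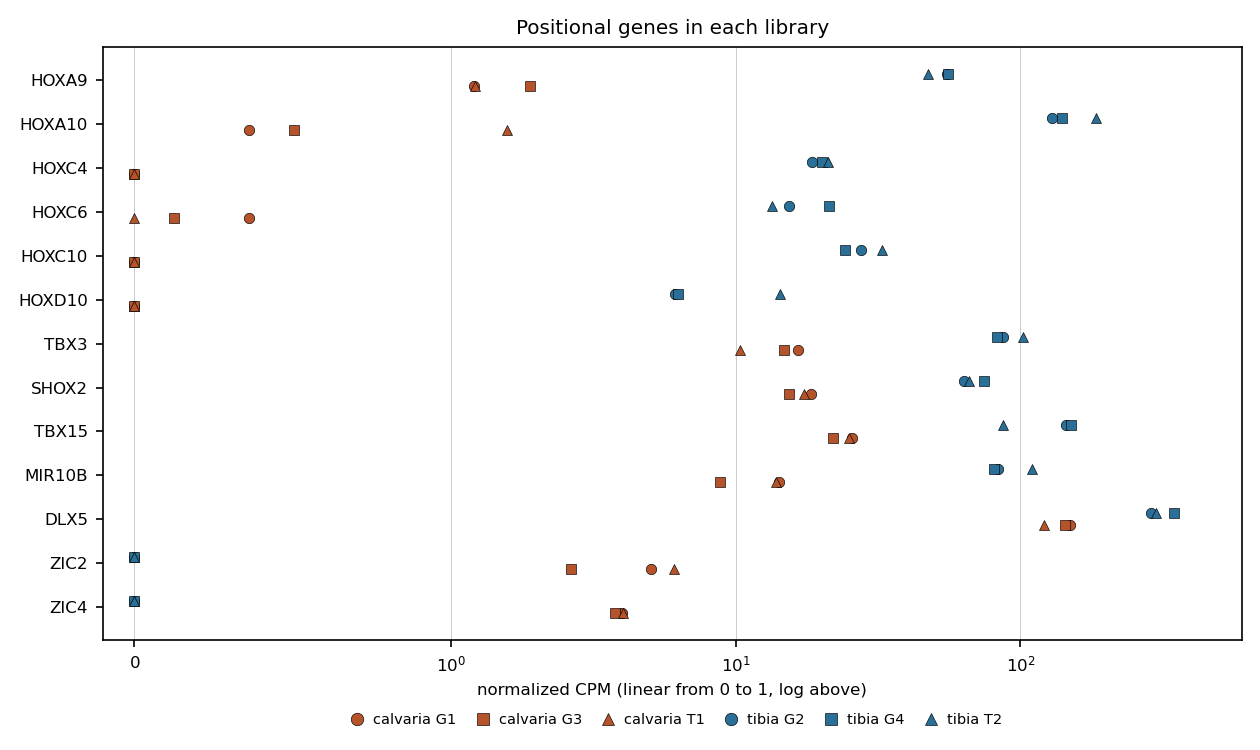
Normalized CPM of 13 positional genes, on an axis that is linear from 0 to 1 and logarithmic above, with 1 point per library. Rust points are calvaria (G1, G3, T1) and blue points tibia (G2, G4, T2). Tibia lies above calvaria in 11 rows, and ZIC2 and ZIC4 are the reverse, with 0 in each tibia library.

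Marker genes of osteocytes were read in each of the 6 libraries, and so were genes of marrow cells. Of 14 tested osteocyte genes, 6 were called higher in tibia and 1 higher in calvaria, with a median of -0.28. MEPE, a phosphoprotein of mineralizing matrix, stood at 5343, 4636 and 5319.6 CPM in G1, G3 and T1 against 16519, 16726 and 7093 CPM in G2, G4 and T2 and differed by -1.40 ± 0.30 on the log2 scale (adjusted p = 0.0151). SOST (LOC713617), which encodes sclerostin, stood at 207, 91.6 and 268 CPM in G1, G3 and T1 against 553, 590.0 and 489 CPM in G2, G4 and T2 and differed by -1.53 ± 0.32 on the log2 scale (adjusted p = 0.0124). T2 was the lowest tibia library for both, and for MEPE it lay nearer to the calvaria libraries than to G2 and G4. The study's own gene table gives macaque SOST a higher average level than MEPE, whereas SOST lay far below MEPE here. The level of SOST is therefore uncertain, and the reason was not tested. DMP1 and PHEX, which osteocytes use in phosphate handling, were not called (log2 -0.20 and 0.22). The gene called higher in calvaria was CAPG, an actin-capping protein that macrophages also use.

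Of 16 osteoblast genes, 2 were called, both higher in tibia (12.5%, beside 15.2% of all rows). They were the transcription factors SP7 (log2 -0.77 ± 0.26, adjusted p = 0.0814) and RUNX2 (log2 -0.47 ± 0.19, adjusted p = 0.124). COL1A2 stood at 33252, 28298 and 46425 CPM in G1, G3 and T1 against 20708, 21462 and 77868 CPM in G2, G4 and T2 and differed by -0.15 ± 0.47 on the log2 scale (adjusted p = 0.865), and BGLAP, which encodes osteocalcin, differed by 0.64 ± 0.74 on the log2 scale (adjusted p = 0.614) but was called higher in calvaria with the pairs as a block (adjusted p = 0.0173). For COL1A2, T2 was far above and G2 and G4 were below each calvaria library, so the sites overlapped. Without T2, 9 osteoblast genes were called higher in calvaria, only 1 was higher in tibia, and COL1A2 was called at 0.77. With the pairs as a block, which called 39.8% of all rows, 4 were called higher in calvaria, while 3 were higher in tibia. Among 28 collagen genes 2 were called higher in calvaria, while 3 were higher in tibia, and without T2 the first number was 9. In the main fit these were shares of 7.14% and 10.7%, beside 15.8% and 15.2% of all rows.

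Of 11 osteoclast genes, CA2 and CALCR were called higher in calvaria and MITF higher in tibia, and without T2 there were 8 higher in calvaria. In the main fit the shares were 18.2% in calvaria and 9.09% in tibia, beside 15.8% and 15.2% of all rows. CALCR reached 10 reads in every calvaria library but not in every tibia library. CA2, a carbonic anhydrase that red cells also use, differed by 2.04 ± 0.27 on the log2 scale (adjusted p = 0.00127). Of 6 tested signals that regulate osteoclasts, 3 were called higher in tibia (50%, beside 15.2% of all rows) and 2 higher in calvaria (33.3%, beside 15.8%). Of the 5 that reached 10 reads in all 6 libraries, 3 were called higher in tibia and 1 higher in calvaria. TNFSF11, which encodes RANKL, the main signal for osteoclast formation, stood at 7.84, 3.78 and 4.38 CPM in G1, G3 and T1 against 29.8, 30 and 35.2 CPM in G2, G4 and T2 and differed by -2.57 ± 0.29 on the log2 scale (adjusted p = 0.000622). The decoy receptor of RANKL, TNFRSF11B, was called in the same direction (log2 -0.77 ± 0.29, adjusted p = 0.109), and TNFSF10, a death ligand, differed by -1.16 ± 0.17 on the log2 scale (adjusted p = 0.00188). MCP-1, a monocyte chemokine, had 2 to 3 reads per tibia library and 10 to 19 per calvaria library, a ratio of 5.77-fold with a 95% counting interval of 2.66 to 14.3. Calvaria reads alone let MCP-1 be tested, so its direction is a description.

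Of 12 tested Wnt antagonists, 8 were called higher in tibia and none higher in calvaria, with a median of -0.998. Their summed level was 1776 to 2178 CPM in calvaria and 2951 to 4286 CPM in tibia, and it includes SOST, whose level is uncertain as given above. TPBG (LOC693944), a membrane protein that inhibits Wnt signalling, stood at 100.1, 67.1 and 92 CPM in G1, G3 and T1 against 339, 328 and 227 CPM in G2, G4 and T2 and differed by -1.79 ± 0.21 on the log2 scale (adjusted p = 0.000721). APCDD1, another membrane inhibitor, stood at 27, 26.9 and 24.2 CPM in G1, G3 and T1 against 55.4, 74.4 and 97.5 CPM in G2, G4 and T2 and differed by -1.54 ± 0.22 on the log2 scale (adjusted p = 0.00182). The remaining 6 were DKK3, SOST, DKK1, FRZB, SFRP4 and WIF1, all called, WIF1 with the smallest difference (log2 -0.59 ± 0.20, adjusted p = 0.0854) and SOST as given above. SFRP1, SFRP2, DKK2 and IGFBP4 were not called, but with the pairs as a block SFRP1 was called higher in tibia (adjusted p = 0.166) and DKK2 higher in calvaria (adjusted p = 0.138). For FRZB, a secreted frizzled-like protein, T1 at 214 CPM reached the level of T2 at 213 CPM, so the sites overlapped. Of 29 Wnt ligands, receptors and targets, 11 were called higher in tibia, among them WNT10B, WNT5B (log2 -1.16 ± 0.20, adjusted p = 0.00513) and the co-receptor LRP6 (log2 -0.80 ± 0.19, adjusted p = 0.0246). Without G2 the number was 5, and it was 7 without G3, without G4 or after a correction for exonic length. MYC, a growth regulator and Wnt target, was the 1 called higher in calvaria (log2 1.29 ± 0.26, adjusted p = 0.0103).

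Of 36 BMP and TGF-beta signals and antagonists, 18 were called higher in tibia and 1 higher in calvaria, with a median of -0.58. Without T2, 4 were called higher in calvaria. BMP7, a bone morphogenetic protein ligand, stood at 15.4, 14.6 and 26.6 CPM in G1, G3 and T1 against 91.4, 88.1 and 99.8 CPM in G2, G4 and T2 and differed by -2.30 ± 0.24 on the log2 scale (adjusted p = 0.000424). BMP4 stood at 14.4, 13 and 17.4 CPM in G1, G3 and T1 against 53.2, 46.6 and 37.5 CPM in G2, G4 and T2 and differed by -1.62 ± 0.21 on the log2 scale (adjusted p = 0.00128). TGFB2, a growth factor stored in matrix, stood at 1011, 927 and 885 CPM in G1, G3 and T1 against 2435, 2629 and 1615 CPM in G2, G4 and T2 and differed by -1.24 ± 0.21 on the log2 scale (adjusted p = 0.00398). Inhibitors of these ligands were called in the same direction, NOG (log2 -1.65 ± 0.40, adjusted p = 0.0251) and BAMBI (log2 -0.70 ± 0.16, adjusted p = 0.0179) among them. INHBA, an activin subunit, was the 1 called higher in calvaria (log2 0.76 ± 0.14, adjusted p = 0.00837).

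Of 15 genes of the IGF and growth hormone axis, 7 were called higher in tibia, and 4 without G2, while IGFBP2, a binding protein of IGFs, was called higher in calvaria (log2 1.20 ± 0.43, adjusted p = 0.0935). Those higher in tibia included the protease PAPPA (log2 -1.55 ± 0.25, adjusted p = 0.0033) and its inhibitors STC1 (log2 -1.16 ± 0.19, adjusted p = 0.0038) and STC2 (log2 -1.34 ± 0.44, adjusted p = 0.0712). Of 14 FGF genes, FGF1 (log2 -1.31 ± 0.21, adjusted p = 0.00339) and FGF10 (LOC701584, log2 -2.91 ± 0.69, adjusted p = 0.0232) were called higher in tibia and FGF18 (LOC702072, log2 2.10 ± 0.65, adjusted p = 0.0597) higher in calvaria, and without T2 there were 6 higher in tibia. In the main fit the shares were 14.3% in tibia and 7.14% in calvaria, beside 15.2% and 15.8% of all rows. FGF10 reached 10 reads in every tibia library but not in every calvaria library, and FGF18 the reverse. Of 14 mechanosensing genes, 5 were called higher in tibia, among them CTGF (log2 -0.86 ± 0.23, adjusted p = 0.0345) and the focal adhesion kinase PTK2 (log2 -0.66 ± 0.18, adjusted p = 0.0365), and 3 without G3, G4 or T1. FAP, a cell-surface protease of stromal cells, stood at 10.9, 10.5 and 12.2 CPM in G1, G3 and T1 against 54.5, 59 and 80.5 CPM in G2, G4 and T2 and differed by -2.53 ± 0.21 on the log2 scale (adjusted p = 0.00018). Of 18 fibroblast, periosteal and marrow stromal genes 9 were called higher in tibia, led by FBLN1 (log2 -2.89 ± 0.31, adjusted p = 0.000543) and POSTN (log2 -2.14 ± 0.25, adjusted p = 0.000652), 2 proteins of the extracellular matrix. The exceptions, VCAM1 and CXCL14, were called higher in calvaria. Of 13 pericyte and smooth muscle genes 4 were called higher in tibia and 2, CNN1 and DES, higher in calvaria. CNN1 and DES reached 10 reads in every calvaria library but not in every tibia library, so their count is a description. The pericyte gene RGS5 stood at 211, 224 and 162 CPM in G1, G3 and T1 against 713, 741 and 455 CPM in G2, G4 and T2 and differed by -1.68 ± 0.22 on the log2 scale (adjusted p = 0.00128).

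The erythroid list, genes of developing red cells, had 28 of 31 tested members called higher in calvaria and none in tibia, beside 15.8% of all rows. Of the 23 that reached 10 reads in all 6 libraries, 22 were called. Its summed level was 46737 to 71622 CPM in calvaria and 9309 to 17336 CPM in tibia. HBB, the beta-globin gene, stood at 23922, 32961 and 35167 CPM in G1, G3 and T1 against 7593, 6599 and 9445 CPM in G2, G4 and T2 and differed by 1.96 ± 0.24 on the log2 scale (adjusted p = 0.000789). The row named HBQ1 stood at 18845, 19202 and 31283 CPM in G1, G3 and T1 against 4442, 1891 and 6639.8 CPM in G2, G4 and T2. Alpha-type globin genes are near-identical copies, so which gene its reads came from is uncertain.

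Of 16 neutrophil granule genes, 14 were called higher in calvaria and none in tibia, with a median of 1.98 and a summed level of 39189.7 to 64291 CPM in calvaria and 7775 to 15982 CPM in tibia. CAMP, which encodes the antimicrobial peptide cathelicidin, stood at 18528, 29430.4 and 30299 CPM in G1, G3 and T1 against 3469.5, 3733 and 7417 CPM in G2, G4 and T2 and differed by 2.42 ± 0.33 on the log2 scale (adjusted p = 0.00164). S100A8, a calcium-binding protein of neutrophils, stood at 15343, 21939.6 and 25799 CPM in G1, G3 and T1 against 3049, 2869 and 5524 CPM in G2, G4 and T2 and differed by 2.46 ± 0.31 on the log2 scale (adjusted p = 0.000983). In the neutrophil list T2 was the highest of the tibia libraries and still below the lowest calvaria library.

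All 7 tested defensin rows were called higher in calvaria, beside 15.8% of all rows. RHBD-1 and DEFB4A among them are described as beta-defensins, so the rows are not all of the alpha or theta type. RTD1A and RTD1B encode precursors of theta-defensins. RTD1A stood at 11612, 14028 and 24609 CPM in G1, G3 and T1 against 3199, 2958 and 7152 CPM in G2, G4 and T2 and differed by 1.92 ± 0.39 on the log2 scale (adjusted p = 0.011). RTD1B stood at 9619.9, 13459 and 14911 CPM in G1, G3 and T1 against 2566, 2253 and 4673 CPM in G2, G4 and T2 and differed by 2.001 ± 0.30 on the log2 scale (adjusted p = 0.0025). RTD1C (LOC574121, described as demidefensin 3) stood at 3033, 3709.8 and 3363 CPM in G1, G3 and T1 against 781, 725 and 944 CPM in G2, G4 and T2 and differed by 2.04 ± 0.18 on the log2 scale (adjusted p = 0.000207). MNP1A, an alpha-defensin, stood at 17619, 27501 and 37524 CPM in G1, G3 and T1 against 4358, 4552 and 11012 CPM in G2, G4 and T2 and differed by 2.05 ± 0.40 on the log2 scale (adjusted p = 0.00925). These rows took 4.37% to 7.45% of the reads of the calvaria libraries and 1.22% to 2.47% of the tibia libraries. Many defensin genes are close copies of each other, so the split of reads between these rows is uncertain. The 5 rows described as eosinophil or mast cell proteins were likewise called higher in calvaria. LOC699418, described as eosinophil lysophospholipase-like, stood at 458, 559.6 and 562 CPM in G1, G3 and T1 against 152, 141 and 149 CPM in G2, G4 and T2 and differed by 1.84 ± 0.16 on the log2 scale (adjusted p = 0.00018). RNASE2, an eosinophil ribonuclease, stood at 18.9, 25.1 and 23.3 CPM in G1, G3 and T1 against 3.83, 3.21 and 5.14 CPM in G2, G4 and T2 and differed by 2.46 ± 0.28 on the log2 scale (adjusted p = 0.000576).

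**Figure D3:**
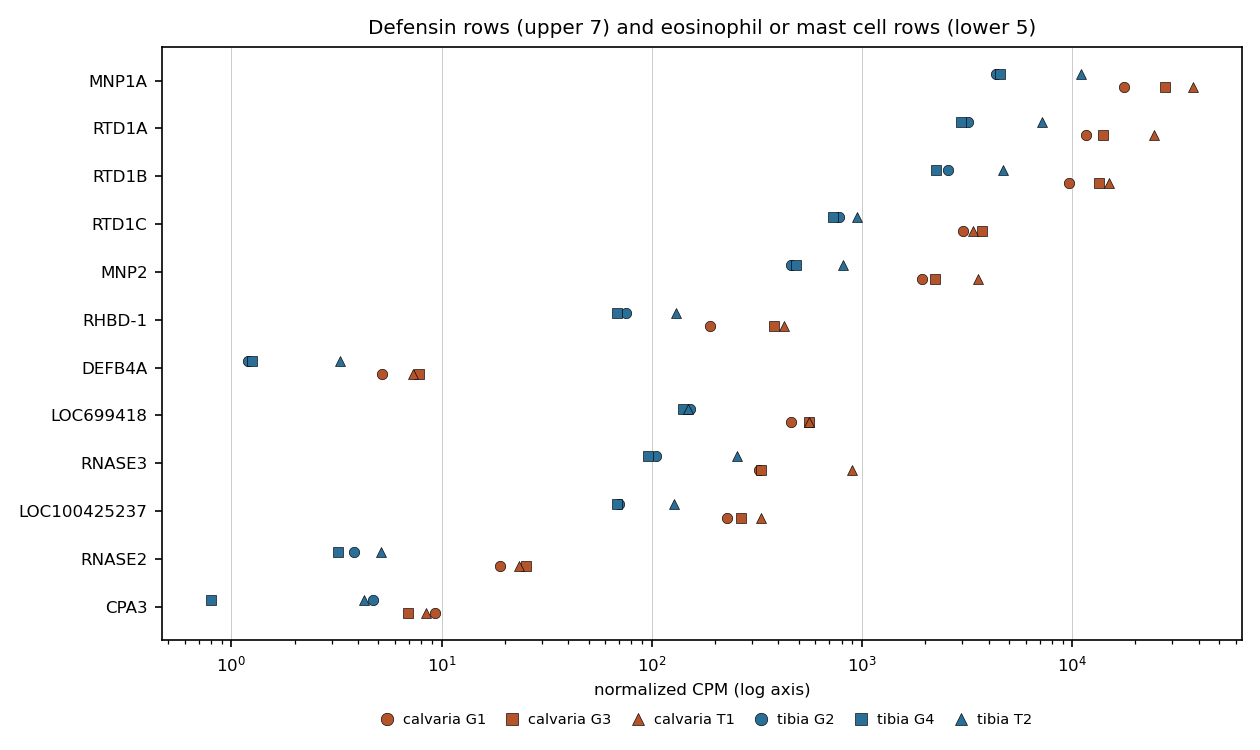
Normalized CPM on a log axis of 7 defensin rows and 5 eosinophil or mast cell rows, with 1 point per library. Rust points are calvaria and blue points tibia, and the sites do not overlap in any row.

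Of 13 megakaryocyte and platelet genes, 8 were called higher in calvaria, and of the 9 that reached 10 reads in all 6 libraries 4 were called. PF4, a platelet chemokine, stood at 63.6, 74.8 and 127 CPM in G1, G3 and T1 against 1.75, 3.21 and 7.18 CPM in G2, G4 and T2 and differed by 4.43 ± 0.46 on the log2 scale (adjusted p = 0.000421). PPBP, another platelet chemokine, stood at 155, 158 and 197 CPM in G1, G3 and T1 against 7.98, 5.84 and 17.7 CPM in G2, G4 and T2 and differed by 4.00 ± 0.36 on the log2 scale (adjusted p = 0.000223). Of 17 B cell and plasma cell genes 11 were called higher in calvaria, led by the plasma cell receptor TNFRSF17 (log2 2.76 ± 0.46, adjusted p = 0.00402), and 1, IRF4, higher in tibia. VPREB1, part of the pre-B cell receptor, had the larger change (log2 3.98 ± 0.78, adjusted p = 0.00954), but only 3, 1 and 11 reads in G2, G4 and T2. Of the 15 B cell and plasma cell genes that reached 10 reads in all 6 libraries, 9 were called higher in calvaria and 1 higher in tibia. Of 16 T and NK cell genes 3 were called, all higher in calvaria, NKG7 and CD2 among them. This share of 18.8% is near the 15.8% of all rows, and with the pairs as a block 5 were called. Of 14 monocyte and macrophage genes 5 were called higher in calvaria, led by AIF1 (log2 1.27 ± 0.22, adjusted p = 0.00512), and 9 were not called. The summed level of that list overlapped between the sites, at 1551 to 1895 CPM in calvaria and 1298 to 1594 CPM in tibia. CD74, the invariant chain of MHC class II, did not pass the test (log2 -0.05 ± 0.15, adjusted p = 0.848). Of 15 progenitor genes, whose summed level also overlapped, 5 were called higher in calvaria, 3 without T1, and the transcription factor MECOM was called higher in tibia (log2 -1.57 ± 0.19, adjusted p = 0.000768).

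Of 42 cell cycle genes, 39 were called higher in calvaria and none in tibia, with a summed level of 3109 to 3988 CPM in calvaria and 1167 to 1326 CPM in tibia. Of the 33 that reached 10 reads in all 6 libraries, 31 were called. MKI67, a protein of dividing cells, stood at 636, 578 and 797 CPM in G1, G3 and T1 against 131, 147 and 167 CPM in G2, G4 and T2 and differed by 2.18 ± 0.18 on the log2 scale (adjusted p = 0.00018). TOP2A, which untangles DNA in mitosis, stood at 392, 421 and 447 CPM in G1, G3 and T1 against 94, 110.2 and 121 CPM in G2, G4 and T2 and differed by 1.95 ± 0.16 on the log2 scale (adjusted p = 0.00018). Of 12 adipocyte genes 6 were called higher in calvaria, among them the fatty acid carrier FABP4 (log2 1.12 ± 0.29, adjusted p = 0.0333), a share of 50% beside 15.8% of all rows, but 3 were called without G2 or G4 and 2 without G3. RBP4, a retinol carrier, was called higher in tibia (log2 -0.85 ± 0.36, adjusted p = 0.149). In bulk tissue fewer cells of a type and less RNA per cell cannot be told apart. The summed levels of the erythroid, neutrophil, platelet and cell cycle lists did not overlap between the sites. Many other lists did not overlap either, among them B cell and adipocyte genes, higher in calvaria, and osteocyte genes and Wnt antagonists, higher in tibia. What part the erythroid, neutrophil, platelet and cell cycle lists had in the results on bone genes was not tested.

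**Figure D4:**
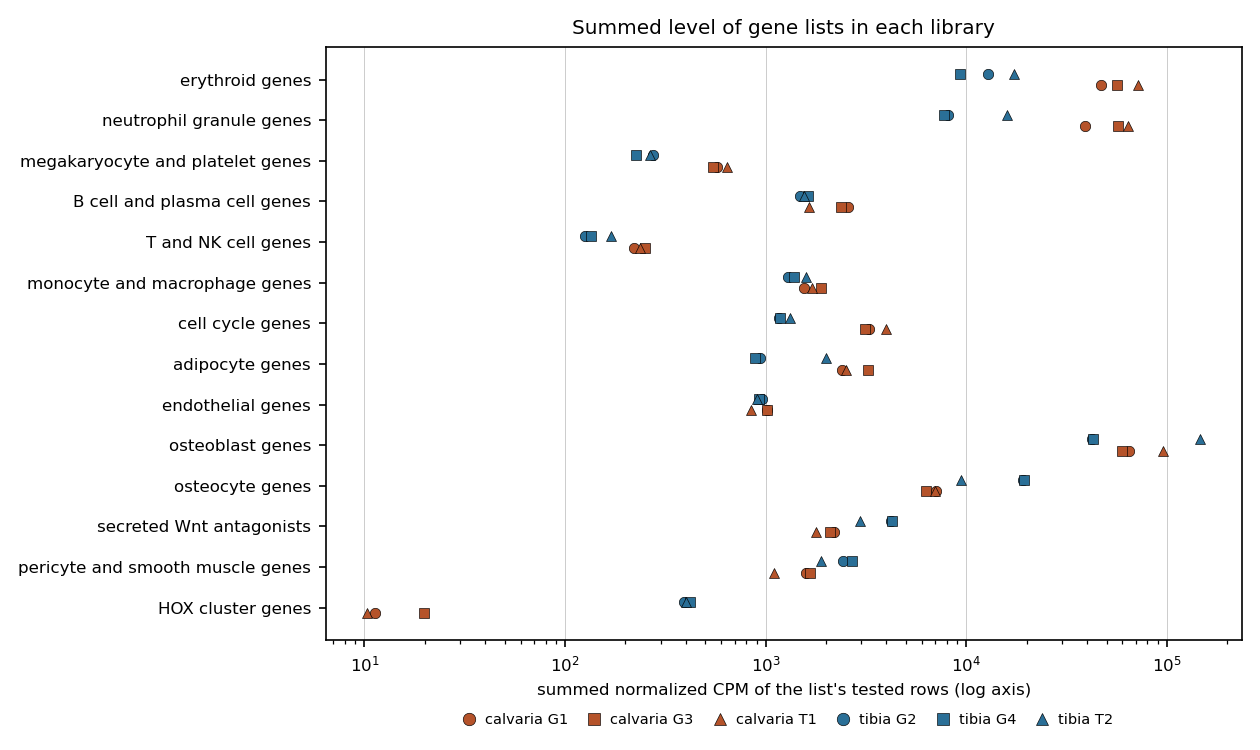
Summed normalized CPM of the tested rows of 14 gene lists, on a log axis, with 1 point per library. Rust points are calvaria and blue points tibia. Erythroid, neutrophil, platelet and cell cycle lists lie higher in calvaria, osteocyte, Wnt antagonist and HOX lists lie higher in tibia, and in the osteoblast list T2 lies above and G2 and G4 below calvaria.

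Of 43 chaperone and heat shock genes, 17 were called higher in calvaria, while 3 were higher in tibia, with a median of 0.19 that fell to -0.02 under library size alone. HSPH1, a large heat shock protein, stood at 2074, 2129 and 1242 CPM in G1, G3 and T1 against 256, 253 and 258 CPM in G2, G4 and T2 and differed by 2.83 ± 0.23 on the log2 scale (adjusted p = 0.00018). DNAJB1 (LOC718890), a co-chaperone of HSP70, stood at 1129, 1540.3 and 868 CPM in G1, G3 and T1 against 170.0, 177 and 124 CPM in G2, G4 and T2 and differed by 2.91 ± 0.24 on the log2 scale (adjusted p = 0.00018). HSPA8, the constitutive HSP70, was not called (log2 -0.13 ± 0.17, adjusted p = 0.661). Of 21 immediate early genes, which answer quickly to stimulation, 8 were called higher in calvaria and none in tibia. DUSP5, a phosphatase induced by growth signals, stood at 208, 191 and 159.8 CPM in G1, G3 and T1 against 45, 59.2 and 48.5 CPM in G2, G4 and T2 and differed by 1.87 ± 0.17 on the log2 scale (adjusted p = 0.000254). EGR1 was called at 0.51 ± 0.24 on the log2 scale (adjusted p = 0.193), and its sites overlapped.

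Of 65 nuclear genes of the mitochondrial respiratory chain 23 were called higher in calvaria, with a median of 0.45. This count depended on the fit. It was 41 with the pairs as a block and 50 without T2, but 11 under library size alone, 8 after a correction for exonic length and 7 without G2. Of 68 cytosolic ribosomal protein genes 17 were called higher in calvaria, and 4, 5 and 3 under the last 3 of these settings. Of 28 interferon response genes 7 were called higher in tibia, led by IFIT2 (log2 -1.02 ± 0.19, adjusted p = 0.00655), and 2 without G2 or G4, while IRF1 (log2 0.79 ± 0.19, adjusted p = 0.023) and ISG20 (log2 1.01 ± 0.32, adjusted p = 0.0639) were called higher in calvaria. Of 36 genes of hypoxia and glycolysis 9 were called higher in calvaria, while 10 were higher in tibia, among the latter the vasodilator peptide ADM (log2 -1.51 ± 0.17, adjusted p = 0.000576).

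In the remaining lists, the numbers called higher in calvaria and in tibia were 5 and 6 of 20 prostaglandin and purine signals, 2 and 4 of 23 matrix proteases and inhibitors, 2 and 2 of 10 cartilage genes, and 0 and 2 of 10 small leucine-rich proteoglycans. For other cell types they were 3 and 1 of 18 endothelial genes, 3 and 1 of 11 skeletal muscle genes, and 0 and 4 of 11 meningeal, neural and glial genes. Of these last 11, 3 reached the read minimum in every tibia library but not in every calvaria library. Among the 6 skeletal muscle genes with 10 reads in all 6 libraries, 1 was called higher in calvaria and 0 higher in tibia. Among the 7 such cartilage genes, 1 was called in each direction. Of 16 antigen presentation genes 1 was called in each direction. Over all tested rows 15.8% were called higher in calvaria and 15.2% higher in tibia. The shares were 8.7% and 17.4% for matrix proteases, 20% each for cartilage genes and 6.25% each for antigen presentation genes. For endothelial genes they were 16.7% and 5.56%, and for skeletal muscle genes 27.3% and 9.09%. These counts are given as a description.

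**Figure D5:**
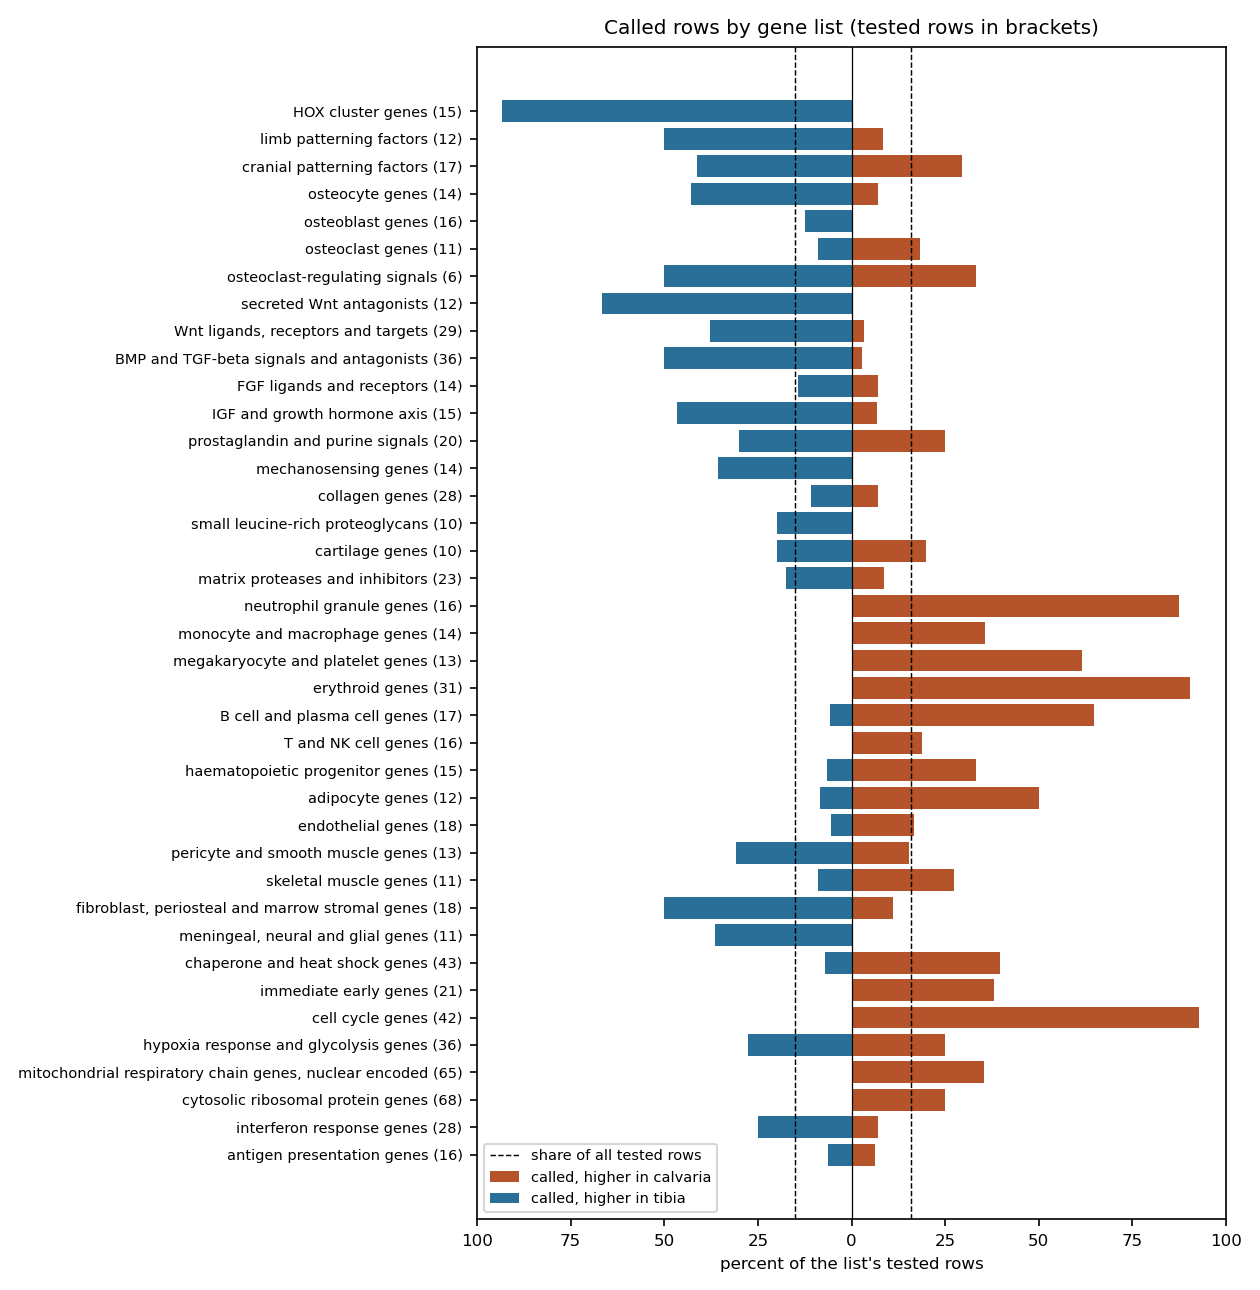
Share of each gene list's tested rows (number in brackets) that was called higher in calvaria (rust, to the right) or higher in tibia (blue, to the left), in percent. Dashed lines mark the shares over all tested rows, 15.8% and 15.2%. HOX genes, most of them tested through tibia reads alone, reach farthest to the left, and cell cycle, erythroid and neutrophil genes farthest to the right.

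Of the 32 genes that the study lists for all 3 of its species, 22 were tested here, 21 were called higher in tibia and none higher in calvaria. The list was chosen on these samples, so its direction is not independent evidence. The gene not called was SEMA3E, a guidance factor, at 2.17, 2.4 and 4.74 CPM in G1, G3 and T1 against 5.57, 4.81 and 6.5 CPM in G2, G4 and T2 and with a difference of -0.86 ± 0.41 on the log2 scale (adjusted p = 0.205). With the pairs as a block it was called higher in tibia (adjusted p = 0.114). ISM1, a secreted protein, stood at 44.9, 57.5 and 55.4 CPM in G1, G3 and T1 against 136, 126 and 139 CPM in G2, G4 and T2 and differed by -1.34 ± 0.16 on the log2 scale (adjusted p = 0.000652). NRN1 (LOC722968), known from neurite growth, stood at 14.5, 15.1 and 15.6 CPM in G1, G3 and T1 against 66.3, 74.1 and 30.9 CPM in G2, G4 and T2 and differed by -1.92 ± 0.30 on the log2 scale (adjusted p = 0.00299). Of the other 10 names, 7 had a row under the read minimum and 3 had no row matched by name, HOXC5, HOXC8 and HOXC9. The only genes that the study gives as higher in calvaria are FOSB and ZIC1. Both had a row under the read minimum here and were not tested. No gene listed in that direction could thus be called, so the lack of such calls is not a result.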

How the data were processed

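Poly(A)+ RNA of 6 macaque libraries, 3 per site, was sequenced in 1 lane. The authors deposited raw counts of reads per gene in 2 tables, which were joined row by row. The submitters' processing notes name BWA 0.7.10-r789, HTSeq and edgeR 3.16.5, whereas the study's methods name HISAT2, so the aligner is uncertain. Counting ignored strand. A normalized column beside each count (6 in all) was not used. Of 29600 rows, 401 named no gene, held at most 0.0102% of reads and were left out. LOC rows were named through RefSeq (3906 of 4977 matched), whose assembly is newer than the authors', so no coordinates were taken.

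Rows were fitted with edgeR 4.0.16 (R 4.3.3; TMM factors of 0.883 to 1.13, quasi-likelihood test, Benjamini-Hochberg adjustment over all 12371 rows), with a common biological coefficient of variation of 0.267. Normalized CPM uses these factors, is not divided by length, and is given for levels of a row between libraries. The ± of a log2 fold change is its standard error. On simulated counts for this comparison, 47 of 100 rows changed by a log2 of 1 and 97 of 100 changed by 2 were called, and unchanged rows made up 19.6% of calls. The simulation held 12371 rows, so its changed rows were far fewer than the rows called in the data. The share of 19.6% lies close to the cut-off set on the adjusted p-value. It is not a measured error rate for the calls given here.

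Named rows were the 6 with the smallest p-values per direction without overlap, the same among LOC rows, the 5 highest called rows per direction, the 6 one-site rows with the most reads, the 3 smallest p-values and the highest row of each of 39 gene lists, and the study's own gene table. A few named rows are not reported here. Other genes were named after their values were seen, as were the families of rows taken from descriptions (defensins, eosinophil proteins, microRNAs). Members and lists were chosen with earlier results of these data known. Pairs (G1 with G2, G3 with G4, T1 with T2) are assumed. After site means were removed, the deviations of these pairs correlated across 9218 rows at 0.279, 0.349 and 0.524, against -0.447 to 0.131 for the other combinations, so a fit with the pair as a block was added. By the study's methods the 3 animals are separate, and each gave both bones. The main fit leaves this pairing out and treats the 6 libraries as independent. Its p-values thus measure spread between animals and libraries together.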

Additional observations from a re-analysis of the deposited data

How the results depend on the processing

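The 3825 called rows became 1546 at a false discovery rate under 0.05 and 1336 with an absolute log2 fold change over 1.1, and 2516 with LOC rows left out, when fewer rows were tested. Higher in calvaria were 1950 rows, and 886, 850 and 1287 under these settings. Higher in tibia were 1875, and 660, 486 and 1229. LOC rows called numbered 1399, and 489 and 500 under the first 2. Library size alone gave 1291 in calvaria and 3154 in tibia. Leaving out 1 library gave 2032 (without G2) to 4918 (without T2) called rows, 1088 to 2577 in calvaria, 944 to 2341 in tibia and 683 to 1864 among LOC rows, and without G4 2519. With the pairs as a block 4926 rows were called, 3812 of them also called without it, and of the genes named here it changed the calls of BGLAP, SFRP1, DKK2 and SEMA3E, given in the text, and no other. Other factors, DESeq2, the exact and likelihood ratio tests, other read filters, the letter as batch, the G libraries alone and the length correction kept the number of called rows within 1.5 times.

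Of 171 named rows, COL1A2 alone was called in another direction than its main value, at 0.56 in the G libraries alone and 0.77 without T2 (-0.47 to 0.77 over the fits without 1 library), and the cause was not tested. Depth limits rows near 10 reads, and 3 animals per site limit the test.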

Other observations

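Rows of core and linker histones were tested in 23 cases. Messages of replication histones mostly lack poly(A) tails, but the rows also include variants such as H2AZ1, H2AZ2 and H3-3A. Of the 23 rows, 13 were called higher in calvaria and 1, H2AC6 (LOC696629), higher in tibia, with a median log2 fold change of 0.84. H2AZ1, H2AZ2 and H3-3A were among the 13. Histone genes are near-identical copies, so the split of their reads is uncertain. Rows described as zinc finger proteins went the other way. Of 352 tested, 91 were called higher in tibia and 15 higher in calvaria, with a median of -0.25 beside -0.01 over all rows, and their exonic length was long, with a median of 2779 bases. Among 239 LOC rows described as ribosomal protein-like, 47 were called higher in calvaria and 5 higher in tibia. Called in either direction were 60.9% of histone, 30.1% of zinc finger and 21.8% of ribosomal protein-like rows, beside 30.9% of all rows. By direction, 15.8% of all rows were called higher in calvaria and 15.2% higher in tibia. The shares of zinc finger and ribosomal protein-like rows called were thus not above that of all rows, and their counts are a description. Of 19 protocadherin rows 4 were called, all higher in tibia, a share of 21.1% beside 30.9% of all rows called and 15.2% called higher in tibia, and PCDH18 led them at -1.70 ± 0.20 (adjusted p = 0.000768).

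Across rows the log2 fold change went with exonic length, with a Spearman's rho of -0.24 over 12371 rows that share the same 6 libraries. The median was 0.24 in the fifth of rows with the shortest exons, 72 to 1241 bases, and -0.21 in the fifth with the longest, from 3954 bases. The part of exonic length in the results was not tested beyond the correction given for it.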
